A study of Mus musculus with 6 samples.

Results

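The 10 genes followed here, Vegfa, Egln1, Egln3, Ndrg1, Bnip3, Ankrd37, Ddit4, P4ha1, Ero1l and Adm, are textbook targets of the hypoxia-inducible factors (HIF). They were taken from the deposited table of normalized counts by gene symbol. The rule used none of their values, but earlier results of these data were known when the genes were chosen. All 10 symbols were present, among 16111 genes with an identifier.

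HIF is a transcription factor made of an oxygen-regulated alpha subunit, HIF-1alpha (Hif1a) or HIF-2alpha (Epas1), and the constitutive beta subunit ARNT. In the presence of oxygen, prolyl hydroxylases of the EGLN family hydroxylate the alpha subunit, which the VHL ubiquitin ligase complex then marks for degradation. When oxygen is scarce the alpha subunit persists and, with ARNT, binds a short core motif in the regulatory DNA of its targets, which serve blood vessel growth, glycolysis, mitochondrial turnover, collagen and disulphide chemistry, and feedback on HIF itself. ARNT is also the partner of the aryl hydrocarbon receptor (AhR), and the repressor of that receptor, encoded by Ahrr, binds ARNT too.

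Macrophages from the livers of mouse fetuses at E13.5 of gestation were compared between 3 wild-type mice and 3 mice deficient in Ahrr (AhRR-/-), all of the strain C57BL/6 RCC. Cells of both genotypes were kept for 5 weeks in RPMI medium with 10% FCS and 2% GM-CSF, and the cells that did not adhere were sequenced as polyA RNA. The labels number the mice 1 to 3 within each genotype and do not say whether a culture came from 1 fetus or from several. The deletion is not described further, and no oxygen level is given.

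Total counts ranged from 3556106 in Ahrr-deficient replicate 1 to 41668336 in Ahrr-deficient replicate 2. Wild-type replicate 2 stood apart, with 5.28% of its counts on the ribosomal RNA gene CT010467.1 against at most 0.0679% in the other 5 libraries. Ahrr itself had 101, 27 and 38 counts in the wild-type libraries and 8, 107 and 12 in the Ahrr-deficient ones. Its log2 fold change was -1.21 (edgeR adjusted p 0.0151, SE 0.26), so reads on the gene remained in the libraries labelled Ahrr-deficient, and the call was lost without wild-type replicate 1 (edgeR adjusted p 0.0631) or 3 (0.0502). With all libraries thinned to the smallest total, the log2 fold change of Ahrr was -1.85 (edgeR adjusted p 0.00989). All 7 listed macrophage markers were detected, and their summed level was 243181 to 272395 normalized counts in wild-type and 151254 to 230823 in Ahrr-deficient libraries, most of it from Lyz2. The log2 fold changes of these 7 markers were all negative, from -0.65 for Csf1r to -0.11 for Itgam. Only Csf1r, the receptor of a macrophage growth factor, passed the test (edgeR adjusted p 0.0304), with Cd68 at 0.0559. Exons of Hmgxb3 overlap Csf1r on the opposite strand, and the Csf1r call was not followed in the fits that left out a library. The part of this shared shift in the results below was not tested. Summed markers of erythroid, hepatocyte and endothelial cells did not exceed 4.35, 11.5 and 10.2 normalized counts in any library, and none of the 4 mast cell markers was in the table. Summed markers of dendritic cells (Zbtb46 and Xcr1, with Flt3 and Ccr7 not in the table) were at 54.7 to 68.6 normalized counts in wild-type and 44.0 to 51.9 in Ahrr-deficient libraries. In such bulk samples, fewer cells of a type and less RNA per cell cannot be told apart.

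Levels of different genes were compared as reads per kilobase of exon per 1000000 counts (RPKM), since normalized counts grow with transcript length. In wild-type cells Vegfa stood highest among the 10 genes, with 56.9 ± 15.0 RPKM (SD, n = 3), followed by Egln3 with 45.5 ± 17.9 and P4ha1 with 37.1 ± 3.6 RPKM. Vegfa was above Egln3 and above P4ha1 in each of the 3 wild-type libraries. Egln3 was above P4ha1 in wild-type replicates 1 and 2 and below it in replicate 3. Ero1l (19.97 ± 5.63 RPKM), Egln1 (16.2 ± 0.7 RPKM) and Bnip3 (12.3 ± 2.9 RPKM) formed a middle tier. Ankrd37 (4.67 ± 0.73 RPKM), Ndrg1 (3.30 ± 1.01 RPKM), Ddit4 (2.20 ± 0.27 RPKM) and Adm (1.35 ± 1.14 RPKM) were low. In Ahrr-deficient cells P4ha1 stood highest, with 50.2 ± 5.5 RPKM (SD, n = 3). Vegfa (21.7 ± 4.6 RPKM), Ero1l (21.7 ± 5.1 RPKM), Egln1 (20.8 ± 0.9 RPKM) and Egln3 (20.4 ± 3.1 RPKM) then lay within each other's spread.

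The comparison between genotypes asks how transcript levels differ between the libraries labelled wild-type and Ahrr-deficient. The 10 HIF targets did not move as one. The angiogenic factor gene Vegfa, the prolyl hydroxylase gene Egln3 and the mTORC1 brake gene Ddit4 fell in Ahrr-deficient cells, to 0.358, 0.418 and 0.571 of their wild-type means. The prolyl hydroxylase gene Egln1 rose to 1.22 times its wild-type mean. Ndrg1, Ankrd37, P4ha1, Bnip3 and Ero1l did not pass the test, and Adm had too few reads for it. Thus 4 of 9 tested genes passed the threshold (edgeR adjusted p under 0.05 over 11408 tested genes), 3 lower and 1 higher, where 19.6% of all tested genes were called in either direction, 9.95% lower and 9.62% higher. The median log2 fold change of the 9 was -0.57, against 0.01 over all tested genes. The 3 libraries of one genotype lay wholly on one side of the other for 5 of the 9, 4 lower and 1 higher, against 38.6% of all tested genes, 19.5% lower and 19.1% higher. The number of the 10 genes past the threshold was 2 with DESeq2 (17.5% of all tested genes) and with all libraries thinned to the smallest total (12.3%), 1 without wild-type replicate 1 (6.07%) or Ahrr-deficient replicate 2 (8.31%), 2 without wild-type replicate 2 (8.15%) or Ahrr-deficient replicate 3 (10.3%), 3 without wild-type replicate 3 (9.35%) and 6 without Ahrr-deficient replicate 1 (32.6%). Vegfa was past the threshold in every one of these fits.

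**Figure D1:**
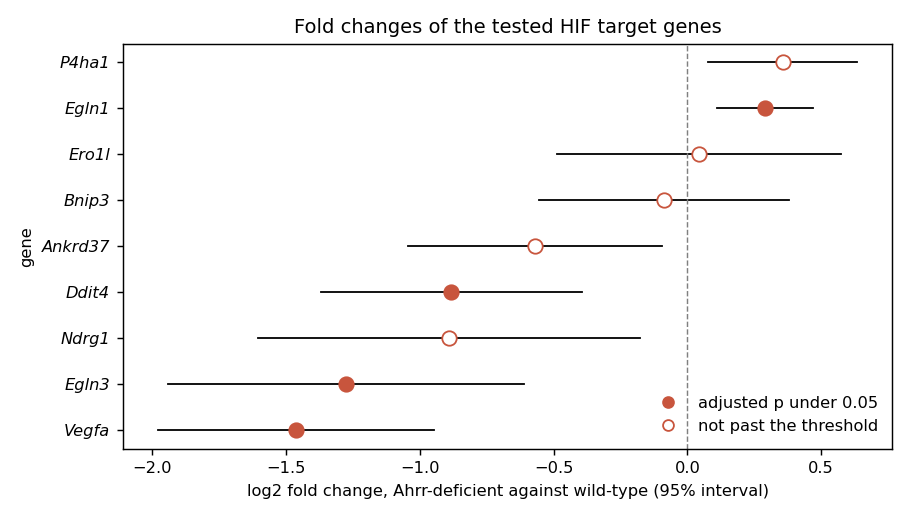
Log2 fold changes of the 9 tested HIF target genes (x axis, Ahrr-deficient against wild-type, lines give 95% intervals from the edgeR fit), ordered by size, with filled points for genes at an adjusted p under 0.05. Vegfa, Egln3 and Ddit4 lie below 0 and Egln1 above it, and the intervals of Bnip3 and Ero1l span 0.

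The sequences upstream of the 4 genes that passed the test are shown because HIF acts through the core motifs ACGTG and GCGTG, and GCGTG is also the core of the element bound by AhR with ARNT. Stretches are from RefSeq windows on GRCm38.p6, upstream of the annotated start of transcription and of the GENCODE gene, with either core on either strand in capitals. They cover chr17:46032378-46032627 (minus strand) for Vegfa, chr12:54203875-54204124 (minus strand) for Egln3, chr10:59951835-59952020 (minus strand) for Ddit4 and chr8:124949325-124949504 (minus strand) for Egln1.
Vegfa: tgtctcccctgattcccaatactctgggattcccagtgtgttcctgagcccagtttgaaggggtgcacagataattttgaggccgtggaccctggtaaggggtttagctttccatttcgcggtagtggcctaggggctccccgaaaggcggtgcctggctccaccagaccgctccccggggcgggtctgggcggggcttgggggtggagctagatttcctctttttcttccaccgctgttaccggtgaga
Egln3: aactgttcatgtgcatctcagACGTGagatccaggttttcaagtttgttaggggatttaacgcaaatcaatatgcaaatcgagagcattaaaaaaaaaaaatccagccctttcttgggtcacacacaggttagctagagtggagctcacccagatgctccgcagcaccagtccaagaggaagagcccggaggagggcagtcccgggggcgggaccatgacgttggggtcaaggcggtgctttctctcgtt
Ddit4: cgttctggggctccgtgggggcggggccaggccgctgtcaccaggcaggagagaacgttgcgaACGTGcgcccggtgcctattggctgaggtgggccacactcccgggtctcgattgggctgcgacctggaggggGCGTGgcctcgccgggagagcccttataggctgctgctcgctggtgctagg
Egln1: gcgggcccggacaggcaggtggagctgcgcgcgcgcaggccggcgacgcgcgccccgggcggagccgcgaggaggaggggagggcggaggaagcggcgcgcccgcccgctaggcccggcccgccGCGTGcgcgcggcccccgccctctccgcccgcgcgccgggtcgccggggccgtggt

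The Egln3 stretch held 1 ACGTG and no GCGTG, the Ddit4 stretch 1 of each, and the Egln1 stretch 1 GCGTG. The RefSeq window of Egln1 also held 1 ACGTG, in bases that GENCODE places within the transcript and that are not shown. The Vegfa stretch held neither, which says only that these letters are not in this window. RefSeq windows were found for 9 of the 10 genes, Ero1l under its present symbol Ero1a and none for Ndrg1. In the 250 bases upstream of each start, ACGTG occurred for 8 and GCGTG for 8 of the 9 genes, counting a second Vegfa start. The window of that second start and the Ankrd37 window lie within the GENCODE genes, as do 199 of the 250 Ero1l bases. Outside the GENCODE genes, ACGTG was held by Egln3, Bnip3, Ddit4 and P4ha1, and GCGTG by Egln1, Bnip3, Ddit4, P4ha1 and Adm. Over all 32851 windows of 250 bases, 16.6% held ACGTG, 28.2% held GCGTG and 38.6% held either. These shares are per window, not per gene, and the windows were not cut at GENCODE genes. ACGTG lies within the E-box CACGTG, which 6.02% of windows held and which occurred once upstream of Bnip3. The printed stretches of Egln3 and Ddit4, which fell, and of Egln1, which rose, each held at least 1 core, and a match is a description, not a bound site.

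Among the secreted ligands, Vegfa encodes the main growth factor for blood vessels. Vegfa (ENSMUSG00000023951.17, chromosome 17, 46016993 to 46032369, minus strand, GRCm38, protein-coding) had 2751, 3493 and 1793 normalized counts in wild-type and 811, 1176 and 894 in Ahrr-deficient replicates 1, 2 and 3. The lowest wild-type library stood above the highest Ahrr-deficient library. The means were 2679 ± 852 and 960.0 ± 191 normalized counts (SD, n = 3), a 2.79-fold difference. The log2 fold change was -1.46 (SE 0.23, 95% interval -1.98 to -0.95, edgeR adjusted p 0.00496). Leaving out each library in turn gave log2 fold changes of -1.69 to -1.23, all past the threshold.

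Adm encodes adrenomedullin, a peptide that dilates vessels. Adm (ENSMUSG00000030790.15, chromosome 7, 110627661 to 110629820, plus strand) had only 31, 27 and 6 reads in wild-type and 1, 11 and 7 reads in Ahrr-deficient replicates 1, 2 and 3. These were 15.0, 50.1 and 8.71 normalized counts in wild-type and 2.93, 2.69 and 7.33 in Ahrr-deficient libraries. The groups did not overlap, but the value of Ahrr-deficient replicate 1 is below the 8.78 normalized counts that 3 reads are worth in that library. Adm did not pass the filter on low counts and has no test in the fit across genes. Without that filter its log2 fold change was -2.48 (edgeR adjusted p 1.44e-06, SE 0.45), in a fit whose p-values are not on the same footing as the others. It passed the filter in 4 of the fits that left out a library, with edgeR adjusted p from 0.0353 without Ahrr-deficient replicate 1 to 0.235 without Ahrr-deficient replicate 2.

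**Figure D2:**
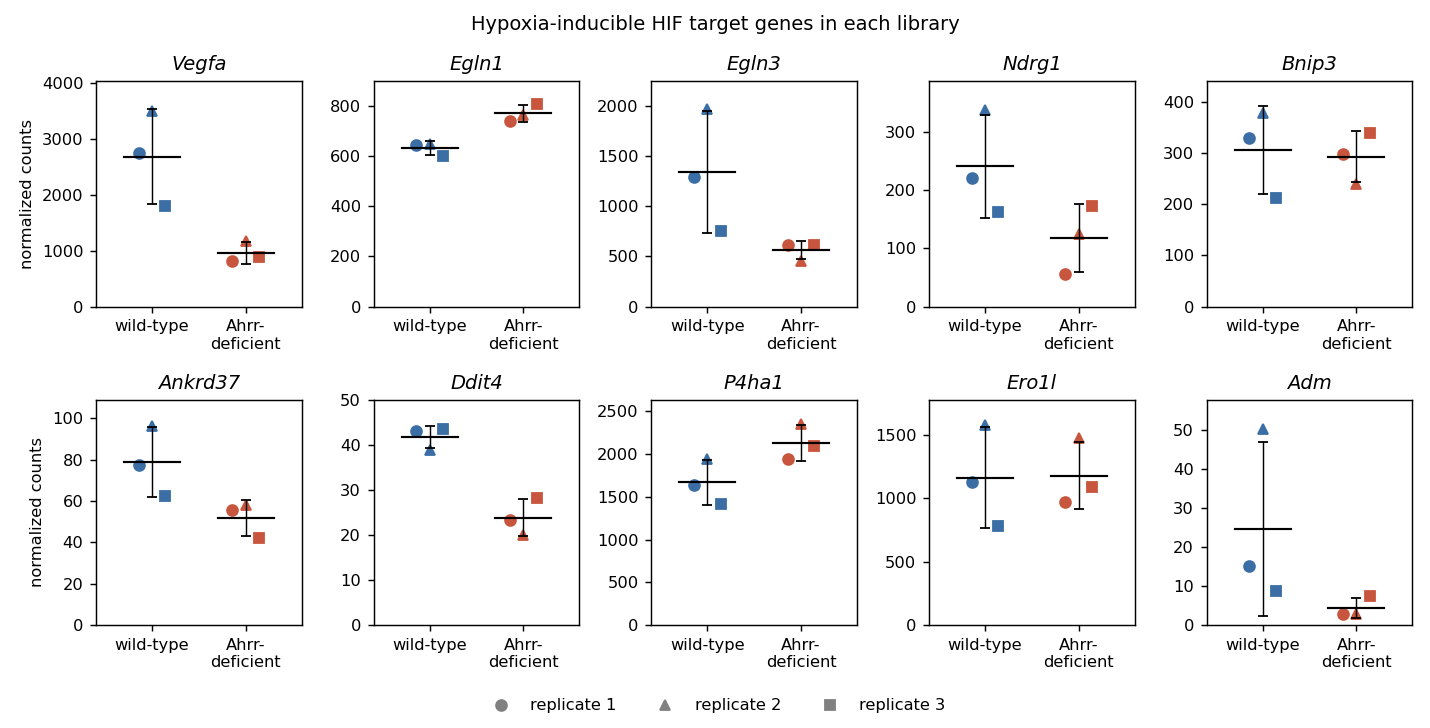
Normalized counts (y axes, from 0) of the 10 HIF target genes in the wild-type and Ahrr-deficient libraries, with symbols for replicates, a line at the mean and bars for the SD (n = 3). The groups are apart for Vegfa, Egln3, Ddit4, Ankrd37 and Adm, which are lower in Ahrr-deficient libraries, and for Egln1, which is higher, and they overlap for the other 4 genes.

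The prolyl hydroxylases Egln1 (PHD2) and Egln3 (PHD3) are both oxygen sensors that hydroxylate HIF alpha and targets of HIF, and they changed in opposite directions. Egln3 (ENSMUSG00000035105.5, chromosome 12, 54178981 to 54203860, minus strand) had 1291, 1967 and 756 normalized counts in wild-type and 615, 456 and 608 in Ahrr-deficient replicates 1, 2 and 3. The groups were separated, though wild-type replicate 3 was close to the Ahrr-deficient libraries. The means were 1338 ± 607 and 559 ± 89.8 normalized counts (SD, n = 3), and the log2 fold change was -1.27 (SE 0.29, 95% interval -1.94 to -0.61, edgeR adjusted p 0.0192). The call was lost without wild-type replicate 1 (edgeR adjusted p 0.0596), Ahrr-deficient replicate 2 (0.0762) or Ahrr-deficient replicate 3 (0.0590). Without wild-type replicate 2, the library that stood apart, the log2 fold change was -0.90 (edgeR adjusted p 0.0488).

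Egln1 (ENSMUSG00000031987.6, chromosome 8, 124908587 to 124949324, minus strand) had 647, 651 and 601 normalized counts in wild-type and 743, 766 and 809 in Ahrr-deficient replicates 1, 2 and 3. Its libraries were close to each other within each genotype and did not overlap between them. The means were 633 ± 27.7 and 773 ± 33.4 normalized counts (SD, n = 3), and the log2 fold change was 0.29 (SE 0.08, 95% interval 0.11 to 0.47, edgeR adjusted p 0.0347). This small rise kept its call without Ahrr-deficient replicate 1 (edgeR adjusted p 0.0183) but not without any other library: wild-type replicates 1, 2 and 3 (0.137, 0.0889 and 0.149) and Ahrr-deficient replicates 2 and 3 (0.0934 and 0.123). It was also not past the threshold with DESeq2 (adjusted p 0.0707), upper-quartile scaling (edgeR adjusted p 0.0520), thinning (0.0743) or no filter on low counts (0.0671).

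Because both genes are read in the same library, their ratio does not depend on scaling. Egln3 had 2.00, 3.02 and 1.26 reads per Egln1 read in wild-type and 0.827, 0.595 and 0.752 in Ahrr-deficient replicates 1, 2 and 3. Egln3 reads outnumbered Egln1 reads in every wild-type library and in no Ahrr-deficient library, but read counts grow with transcript length. In RPKM, Egln3 stood above Egln1 in every wild-type library. In Ahrr-deficient replicates 1, 2 and 3 Egln3 had 22.2, 16.8 and 22.1 RPKM, against 19.9, 20.9 and 21.8 for Egln1. The mean ratio was 2.09 ± 0.89 against 0.725 ± 0.118 (SD, n = 3). Its two-sided exact permutation p was 0.1, the smallest that 3 against 3 libraries allow (0.25 adjusted over 5 ratios). The ratio was added after the values of both genes were seen. Each gene was already apart between the genotypes, in opposite directions, so the separation of the ratio and its p were fixed beforehand. The third paralog, Egln2, had 437 ± 41.3 normalized counts in wild-type and 438 ± 42.3 in Ahrr-deficient cells (SD, n = 3), a log2 fold change of 0.01 (adjusted p 0.969 by edgeR, SE 0.11).

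Ddit4 (REDD1) encodes an inhibitor of mTORC1 signalling that is induced by hypoxia and other stresses. Ddit4 (ENSMUSG00000020108.4, chromosome 10, 59949669 to 59951834, minus strand) had 43.1, 38.9 and 43.5 normalized counts in wild-type and 23.4, 20.1 and 28.3 in Ahrr-deficient replicates 1, 2 and 3. Each wild-type library was above each Ahrr-deficient one. The log2 fold change was -0.88 (SE 0.22, 95% interval -1.37 to -0.40, edgeR adjusted p 0.0228). It rests on few reads, 8 in Ahrr-deficient replicate 1. The call was lost without wild-type replicate 1 (edgeR adjusted p 0.126), wild-type replicate 2 (0.0608), wild-type replicate 3 (0.0712) or Ahrr-deficient replicate 2 (0.145), with thinning (0.0600) and with DESeq2 (0.0729).

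Ndrg1 encodes a stress-responsive protein linked to differentiation and lipid handling. Ndrg1 (ENSMUSG00000005125.12, chromosome 15, 66929318 to 66969640, minus strand) had 221, 337 and 163 normalized counts in wild-type and 55.6, 125 and 173 in Ahrr-deficient replicates 1, 2 and 3. Ahrr-deficient replicate 3 stood above wild-type replicate 3, so the groups overlapped. The log2 fold change was -0.89 (SE 0.32, 95% interval -1.60 to -0.18) and did not pass the test (edgeR adjusted p 0.0772). It passed only in the fit with no filter on low counts (1.42e-07), whose p-values are not on the same footing as the others.

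Ankrd37 encodes an ankyrin repeat protein known mainly as a HIF target. Ankrd37 (ENSMUSG00000050914.16, chromosome 8, 45996902 to 46005707, minus strand) had 77.4, 96.4 and 62.4 normalized counts in wild-type and 55.6, 58.2 and 41.9 in Ahrr-deficient replicates 1, 2 and 3. The groups did not overlap, yet the log2 fold change of -0.57 (SE 0.21, 95% interval -1.04 to -0.09) was not past the threshold (edgeR adjusted p 0.0871). Bnip3 encodes a mitochondrial receptor for mitophagy. Bnip3 (ENSMUSG00000078566.8, chromosome 7, 138890836 to 138909519, minus strand) had 329, 378 and 212 normalized counts in wild-type and 298, 240.2 and 340.1 in Ahrr-deficient replicates 1, 2 and 3. The Ahrr-deficient values lay within the wild-type range, with a log2 fold change of -0.09 (95% interval -0.56 to 0.38, edgeR adjusted p 0.796). Exons of other genes lie on the opposite strand of Ndrg1 (Gm17035 and Gm2895), Ankrd37 (Lrp2bp and Ufsp2) and Bnip3 (Gm45507), and reads of such pairs cannot be told apart without strand.

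P4ha1 and Ero1l act in the endoplasmic reticulum, P4ha1 as the catalytic subunit of collagen prolyl 4-hydroxylase and Ero1l as the oxidase that feeds disulphide bond formation. P4ha1 (ENSMUSG00000019916.14, chromosome 10, 59323296 to 59373304, plus strand) had 1643, 1945 and 1419.5 normalized counts in wild-type and 1937, 2351 and 2096 in Ahrr-deficient replicates 1, 2 and 3. Wild-type replicate 2 was just above Ahrr-deficient replicate 1, so the groups overlapped. The means were 1669 ± 264 and 2128 ± 209 normalized counts (SD, n = 3), and the log2 fold change was 0.36 (SE 0.12, 95% interval 0.08 to 0.64, edgeR adjusted p 0.0723). It passed the threshold without Ahrr-deficient replicate 1 (edgeR adjusted p 0.0325) and in the fit with no filter on low counts (0.00873).

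Ero1l (ENSMUSG00000021831.9, chromosome 14, 45283087 to 45318771, minus strand) had 1126, 1578 and 782 normalized counts in wild-type and 972, 1475 and 1090.5 in Ahrr-deficient replicates 1, 2 and 3. The genotypes covered the same range, with a log2 fold change of 0.04 (SE 0.24, 95% interval -0.49 to 0.58, edgeR adjusted p 0.916). The interval still allows a change of either sign of the size seen for P4ha1.

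Ratios of reads within a library were also taken for 4 other pairs of relatives, again after the values were seen. Vegfa had 13.1, 17.3 and 10.9 reads per read of its paralog Vegfb in wild-type and 7.91, 6.78 and 5.62 in Ahrr-deficient replicates 1, 2 and 3. The groups did not overlap (two-sided exact permutation p 0.1, 0.25 adjusted over 5 ratios). Vegfb itself had a log2 fold change of -0.33 (adjusted p 0.203 by edgeR, SE 0.17). The ratios of Bnip3 to Bnip3l (0.142 ± 0.034 and 0.129 ± 0.025, SD), of Ero1l to Ero1lb (1.71 ± 0.45 and 2.26 ± 0.69, SD) and of Ndrg1 to Ndrg3 (0.309 ± 0.117 and 0.182 ± 0.088, SD) overlapped between wild-type and Ahrr-deficient libraries. The exact permutation p of these 3 ratios was 0.7, 0.4 and 0.3 (n = 3 in each group).

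**Figure D3:**
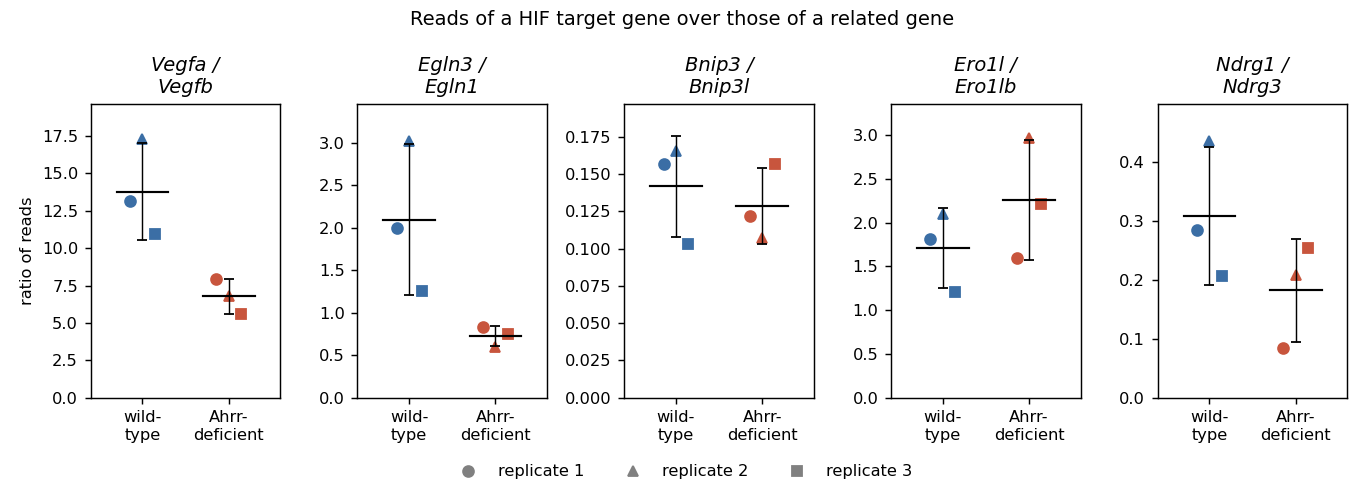
Reads of a HIF target gene divided by reads of a related gene in the same library (y axes, from 0) for the 3 wild-type and 3 Ahrr-deficient libraries, with a line at the mean and bars for the SD. The genotypes are apart for Vegfa over Vegfb and Egln3 over Egln1, and overlap for the other 3 ratios.

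Within wild-type most of the HIF targets ranked the libraries in the same order. Replicate 2 was highest, replicate 1 in the middle and replicate 3 lowest for 9 of the 10 genes, the exception being Ddit4, with the opposite order. That order was found for 23.8% of all tested genes. It was found for 9 of 26 tested genes among other non-glycolytic HIF targets, for 6 of 19 glycolytic targets, for 5 of 16 HIF subunits and regulators and for 4 of 26 receptors, paralogs and partners. The pattern was noticed after the values were seen. An order also takes no account of the size of the differences. Wild-type replicates 1, 2 and 3 had 647, 651 and 601 normalized counts of Egln1, and only 31, 27 and 6 reads of Adm.

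The spread within wild-type was also wide for some of these genes. The highest wild-type library exceeded the lowest 5.75-fold for Adm, 2.60-fold for Egln3, 2.08-fold for Ndrg1, 2.02-fold for Ero1l and 1.95-fold for Vegfa. It did so by 1.78-fold for Bnip3, 1.54-fold for Ankrd37, 1.37-fold for P4ha1, 1.12-fold for Ddit4 and 1.08-fold for Egln1. Over the 10031 tested genes that averaged 50 counts or more and had reads in each wild-type library, the median was 1.14-fold, and 1.82% reached at least 2-fold. Adm and Ddit4 have fewer reads than that and are not among these genes. In Ahrr-deficient libraries no single order held for more than 3 of the 10 genes, and the ratio of highest to lowest was 1.35 for Egln3, 1.45 for Vegfa, 1.52 for Ero1l, 2.72 for Adm and 3.11 for Ndrg1, against a median of 1.25 and 4.88% of genes at 2-fold or more. Wild-type replicate 2 is also the library with the high share of ribosomal RNA. Of 4 fibroblast markers only Pdgfra was in the table, with 50.3, 113.1 and 24.7 normalized counts in wild-type replicates 1, 2 and 3 and 16.7 to 41.0 in Ahrr-deficient libraries, while Col1a1, Col1a2 and Col3a1 were not in it. Of 5 neutrophil markers only S100a8 was in the table, with 10.2, 26.0 and 10.2 normalized counts in wild-type replicates 1, 2 and 3 and 4.89 to 14.6 in Ahrr-deficient libraries. The part of these values in the order was not tested.

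**Figure D4:**
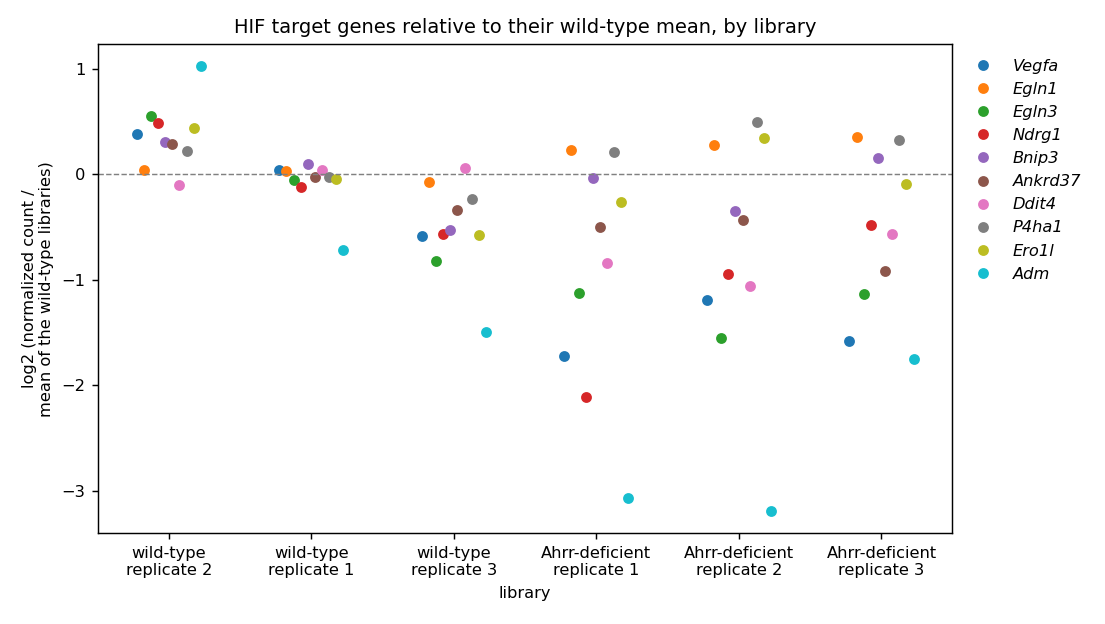
Each HIF target gene in each library as log2 of its normalized count over the mean of the 3 wild-type libraries (y axis), with wild-type libraries placed by their level and 1 colour per gene. In wild-type replicate 2 all genes but Ddit4 lie above 0 and in replicate 3 all but Ddit4 lie below 0, while in the Ahrr-deficient libraries Egln1 and P4ha1 lie above 0 and Vegfa, Egln3, Ndrg1, Ankrd37, Ddit4 and Adm below it.

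Hif1a and Epas1, the genes of the 2 main HIF alpha subunits, changed in opposite directions. Of 17 listed subunits and regulators, 16 were tested and 4 passed the threshold, 2 higher and 2 lower, where 19.6% of all tested genes did, with a median log2 fold change of 0.01. Hif1a, the gene of HIF-1alpha, rose from 2279 ± 222 to 3144 ± 203 normalized counts (SD, n = 3), a log2 fold change of 0.46 (adjusted p 0.0162 by edgeR, SE 0.10). Epas1, the gene of HIF-2alpha, fell from 8132 ± 940 to 5877 ± 587 normalized counts (SD, n = 3), a log2 fold change of -0.47 (adjusted p 0.0343 by edgeR, SE 0.13). Cited2, which encodes a protein that competes with HIF alpha for the coactivators p300 and CBP, fell by a log2 fold change of -0.96 (adjusted p 0.00658 by edgeR, SE 0.17). Arnt2, a paralog of Arnt that is known mainly from neurons, rose from 5.11 ± 1.89 to 34.0 ± 16.2 normalized counts (SD, n = 3), a log2 fold change of 2.73 (adjusted p 0.00409 by edgeR, SE 0.40). Arnt2 rests on 15, 2 and 3 reads in wild-type and 6, 204 and 33 reads in Ahrr-deficient replicates 1, 2 and 3, and it was too low to be tested after thinning.

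Arnt itself had 1085 ± 55.1 and 1056 ± 91.0 normalized counts in wild-type and Ahrr-deficient cells (SD, n = 3), a log2 fold change of -0.05 (adjusted p 0.736 by edgeR, SE 0.09). Hif1an, which encodes the asparagine hydroxylase FIH, had a log2 fold change of 0.02 (adjusted p 0.910 by edgeR, SE 0.08). Vhl, the substrate receptor of the HIF ubiquitin ligase, had a log2 fold change of 0.36 (adjusted p 0.0602 by edgeR, SE 0.12), and it passed without Ahrr-deficient replicate 1 (0.0241). The calls of Cited2 and Arnt2 held in all 6 fits that left out a library. That of Hif1a was lost without wild-type replicate 1 or 2 (edgeR adjusted p 0.0749 and 0.0668), and that of Epas1 without wild-type replicate 1 or 2 (0.122 and 0.102) or Ahrr-deficient replicate 2 or 3 (0.108 and 0.109). Exons of Gm15283 and Gm49321 overlap Hif1a and exons of Gm30873 overlap Arnt2, so these counts are uncertain. The number called in this list was 2 without wild-type replicate 1 or 2 (6.07% and 8.15% of all tested genes) and 7 without Ahrr-deficient replicate 1 (32.6%).

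Among other known targets of HIF outside glycolysis, Hilpda fell to 0.225 times and Bhlhe40 rose to 2.66 times the wild-type mean. Of 34 listed, 26 were tested and 9 passed the threshold, 3 higher and 6 lower, where 9.62% of all tested genes were called higher and 9.95% lower. The median log2 fold change was -0.04, against 0.01 over all tested genes. Hilpda, a lipid droplet protein that inhibits triglyceride breakdown, fell from 5009 ± 1020 to 1128 ± 245 normalized counts (SD, n = 3), a log2 fold change of -2.16 (adjusted p 7.06e-04 by edgeR, SE 0.19). The collagen crosslinking genes Lox (log2 fold change -1.64, SE 0.30, edgeR adjusted p 0.00826) and Plod2 (-1.59, SE 0.25, edgeR adjusted p 0.00504) also fell. So did the chemokine receptor gene Cxcr4 (log2 fold change -1.03, SE 0.20, edgeR adjusted p 0.0103). These 4 falls held in all 6 fits that left out a library. Pdgfra, the only one of 4 fibroblast markers in the table, had 24.7 to 113.1 normalized counts in wild-type and 16.7 to 41.0 in Ahrr-deficient libraries (log2 fold change -1.03, SE 0.48, edgeR adjusted p 0.159), and its part in the falls of Lox and Plod2 was not tested.

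The rises in this list were those of Bhlhe40, Stc2 and Tfrc. Bhlhe40, which encodes a transcriptional repressor, rose from 2394 ± 269 to 6370.1 ± 1278 normalized counts (SD, n = 3), a log2 fold change of 1.41 (adjusted p 0.00158 by edgeR, SE 0.16). Tfrc, the transferrin receptor gene, had a log2 fold change of 0.71 (adjusted p 0.00645 by edgeR, SE 0.12). Both held in all 6 fits that left out a library. Stc2, which encodes the secreted stanniocalcin-2, rose by a log2 fold change of 1.34 (adjusted p 0.0255 by edgeR, SE 0.34). The Stc2 call was lost without wild-type replicate 1, 2 or 3 (edgeR adjusted p 0.0803, 0.0714 and 0.0827) or Ahrr-deficient replicate 2 or 3 (0.165 and 0.0685). The number called in this list was 14 without Ahrr-deficient replicate 1 (32.6% of all tested genes) and 7 without any 1 of the other libraries (6.07% to 10.3%). Exons on the opposite strand overlap Lox, Plod2 and Bhlhe40.

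Glycolytic targets of HIF changed in both directions. Of 21 listed, 19 were tested and 6 passed the threshold, 3 higher and 3 lower, where 19.6% of all tested genes did, with a median log2 fold change of 0.15. The 3 higher were Hk2 (log2 fold change 0.82, SE 0.18, edgeR adjusted p 0.0174), a hexokinase, Pgam1 (0.59, SE 0.11, 0.00929), a phosphoglycerate mutase, and Pfkp (0.54, SE 0.12, 0.0152), a phosphofructokinase. The 3 lower were Pfkfb3 (-0.88, SE 0.13, edgeR adjusted p 0.00376), Pfkfb4 (-0.42, SE 0.09, 0.0151) and Pdk1 (-0.29, SE 0.09, 0.0490). Pfkfb3 and Pfkfb4 set the level of an activator of phosphofructokinase, and Pdk1 is a kinase that restrains pyruvate dehydrogenase. The calls of Pgam1 and Pfkfb3 held in all 6 fits that left out a library. Those of Hk2 and Pdk1 held only without Ahrr-deficient replicate 1 (edgeR adjusted p 0.0576 to 0.0695 for Hk2 and 0.0650 to 0.197 for Pdk1 in the other 5 fits). Pfkp was lost without wild-type replicate 1 or 3 or Ahrr-deficient replicate 2 or 3 (0.0553 to 0.0798), and Pfkfb4 without any 1 wild-type library or Ahrr-deficient replicate 2 (0.0508 to 0.0718). Pfkp also overlaps exons of Pitrm1. The number called was 2 without wild-type replicate 1 or 3, 3 without wild-type replicate 2 or Ahrr-deficient replicate 2 or 3 (6.07% to 10.3% of all tested genes in these 5 fits), and 10 without Ahrr-deficient replicate 1 (32.6%).

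Among genes that act with the products of the 10 targets, the share past the threshold was near that of all genes. Of 35 listed receptors, paralogs and partners, 26 were tested and 4 passed the threshold, all lower, where 19.6% of all tested genes did and 9.95% were lower, with a median log2 fold change of -0.04. Ackr3, a scavenging receptor for chemokines and adrenomedullin, fell from 789 ± 98.4 to 391 ± 97.6 normalized counts (SD, n = 3), a log2 fold change of -1.06 (adjusted p 0.00658 by edgeR, SE 0.18). Pink1, a kinase of mitophagy, fell by 0.71 on the log2 scale (edgeR adjusted p 0.0140), Sesn1, an inhibitor of mTORC1 signalling, by 0.59 (0.0279) and Ndrg3, a paralog of Ndrg1, by 0.28 (0.0449). The number called here was 1 without wild-type replicate 1 or Ahrr-deficient replicate 3, 2 without wild-type replicate 2 or 3 or Ahrr-deficient replicate 2, and 10 without Ahrr-deficient replicate 1 (32.6% of all tested genes, against 6.07% to 10.3% in the other 5 fits). The Ackr3 call held in all 6 of these fits. Pink1 was lost without wild-type replicate 1 or 2 or Ahrr-deficient replicate 3 (edgeR adjusted p 0.0544 to 0.0718), Sesn1 without wild-type replicate 1 or 3 or Ahrr-deficient replicate 2 or 3 (0.0840 to 0.133), and Ndrg3 without any library but Ahrr-deficient replicate 1 (0.0743 to 0.166). The VEGF receptor gene Flt1 had a log2 fold change of 0.26 (adjusted p 0.380 by edgeR, SE 0.20).

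**Figure D5:**
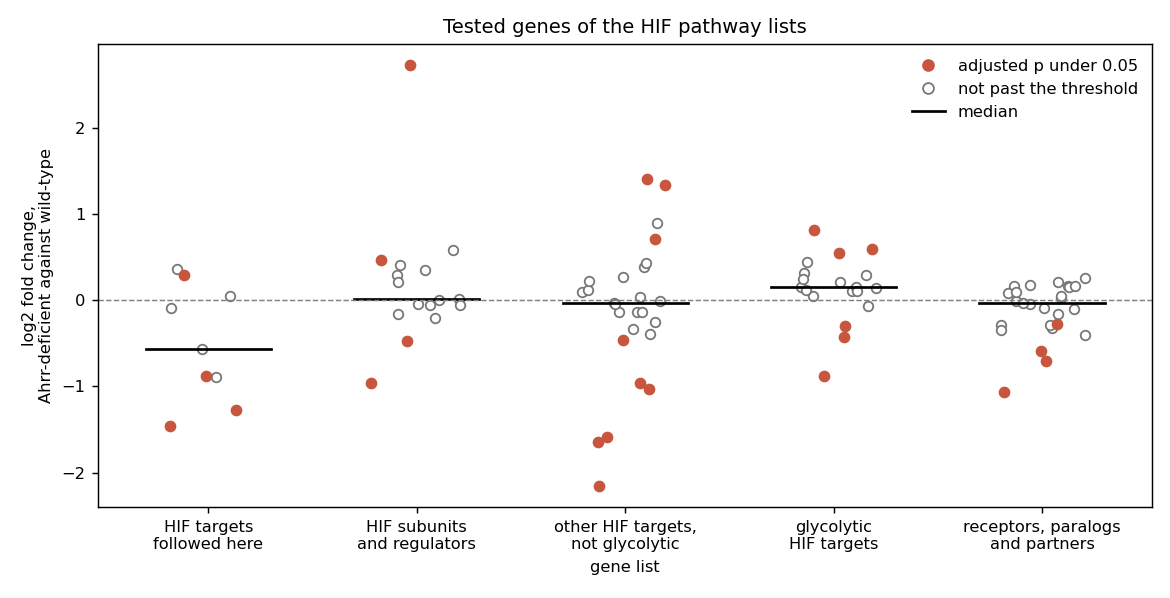
Log2 fold changes (y axis, Ahrr-deficient against wild-type) of the tested genes in the 5 HIF-related lists (x axis), 1 point per gene, filled where the adjusted p was under 0.05, with a line at the median of each list. The medians lie between -0.57 for the 9 tested targets followed here and 0.15 for glycolytic targets, and 4 of the 5 lists hold called genes in both directions.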

How the data were processed

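RNA of 6 libraries was read as single 75 bp reads from TruSeq libraries of 100 ng of RNA, per the labels' protocols. The submitters' processing notes name CASAVA 1.8.2, fastp 0.20.0, STAR 2.7.10b, SAMtools 1.16.1, R 4.3.1, DESeq2 1.40.2 and the build mm10. The counting program, annotation and strand setting are not given in the sources used here. The authors deposited raw counts for 53465 features without identifiers, and a normalized signal (counts divided by a size factor per library, called normalized counts here) for 16111 genes with identifiers. All deposited signal values (100%) were whole multiples of 1 read within 0.001 reads, and the recovered reads equalled the raw counts of features with at least 10 counts in total. Features without an identifier held 0.0232% to 0.0511% of counts.

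The genotypes were compared on counts by edgeR's quasi-likelihood F test (edgeR 4.0.16, R 4.3.3), two-sided, after TMM scaling and filterByExpr, with no term besides genotype, with Benjamini-Hochberg adjustment over 11408 genes and a threshold of 0.05. The fit was tested on simulated data. Standard errors were taken from the fold change and its F statistic. RPKM used the union of GENCODE M21 exons (GRCm38, the same assembly as mm10). That annotation matched 16094 of 16111 identifiers, and 14479 of them with the same version. Of the 10 genes, only Ndrg1 had another version there, and its coordinates and RPKM rest on that version. Replicate pairs differed by more than sampling noise, with a chi-square per degree of freedom of 5.79 to 175.1, so each library counted once. Reads carry no molecular identifiers, so depth covers counting error only. The 10 genes and all lists were chosen with earlier results of these data known. All 10 are named, as are the HIF subunits and, from each list, at most 4 genes past the threshold with the largest change in each direction. Vegfb, Bnip3l, Ero1lb, Flt1 and Csf1r were named after their values were seen. Alternatives were other scaling factors, other filters, DESeq2 1.42.0, limma-voom (limma 3.58.1), the replicate number as a block, thinning, and each library left out. The ratios of reads were added after seeing the data.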

Additional observations from a re-analysis of the deposited data

How the results depend on the processing

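Over 14 alternatives, 599 values were recomputed for 35 named genes, 5 ratios and the counts over lists. The result was kept by 474 of them, 74 fell below the threshold, 5 passed it, 32 counts or values moved and 14 changed sign. A gene was kept if its direction and its side of the threshold stayed. A ratio was judged by direction alone, and a count by whether it stayed within a set fold range of the main count. All sign changes were of genes not past the threshold. With upper-quartile scaling Egln2 and Hif1an had log2 fold changes of -0.024 and -0.016, and Egln2 had -0.0025 among genes averaging 50 counts or more and -0.013 after thinning. Leaving out 1 library gave -0.053 to 0.092 for Egln2, -0.015 to 0.038 for Hif1an, -0.29 to 0.070 for Bnip3 and -0.18 to 0.31 for Ero1l. Of the 10 HIF targets, 2 were past the threshold with DESeq2 and 2 after thinning to the smallest total, where 1265 of all tested genes were (604 higher, 661 lower). Leaving out 1 library gave 694 to 3857 called genes in all, 1 to 6 of the 10 targets, 2 to 7 HIF subunits and regulators, 7 to 14 other targets, 2 to 10 glycolytic targets and 1 to 10 partners. Each of these fits has 1 library fewer. The causes of the lower numbers, and of the rise without Ahrr-deficient replicate 1, the shallowest library, were not tested. Same-numbered libraries of the 2 genotypes did not deviate together (correlations of -0.20, 0.092 and 0.19), so the numbers are not treated as pairs. With the replicate number as a block, 1390 genes were called (666 higher, 724 lower), with 2 of the 10 targets and 2 of the partners. Among named genes the block ended the calls of Egln1 (edgeR adjusted p 0.0919), Ddit4 (0.0765), Epas1 (0.0550), Stc2 (0.0808), Pdk1 (0.0805), Sesn1 (0.0568) and Ndrg3 (0.0973), and of no others. Adm was too low for the main test, so it has no value to compare its alternatives with. Among the 10 targets depth limits Adm and Ddit4 most, and Arnt2 also has few reads, where 3 reads are worth 8.78 normalized counts in the shallowest library and 0.734 in the deepest.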
